A study of Homo sapiens with 12 samples.

Results

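The genes described here are the transcription factors MYBL2, FOXM1 and MYBL1 and the 5 subunits of the MuvB core, LIN9, LIN37, LIN52, LIN54 and RBBP4. They were chosen by gene name, 8 of the 57133 names in the count files, and all 8 were among the 14504 genes with enough counts to be tested. Their messenger RNA was measured in MCF10-A, an established, non-tumorigenic human breast epithelial cell line at passage 12 to 15. Every culture carried a doxycycline-inducible transgene and received 50 ng/ml doxycycline, so the controls share the inducer and the induced fluorescent protein. The groups were mVenus (the fluorescent protein alone), p16 (mVenus-p16), p21 (a fusion that the labels spell mVenus-21) and p16 with Torin2 (mVenus-p16 with the mTOR inhibitor Torin2 at 100 nM). All groups other than the last received DMSO, the solvent, and all were collected at day 5 in a medium with horse serum, EGF, insulin, hydrocortisone and cholera toxin. The series description counts 3 biological replicates in each group. The sources used here do not say whether a cell line was 1 clone.

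The MuvB core is a complex with no enzyme activity of its own that is assembled on alternative partners. In quiescent or arrested cells it joins the pocket proteins p130 (RBL2) or p107 (RBL1) with E2F4 or E2F5 and a DP protein to form DREAM, a repressor of cell cycle genes. In cycling cells it joins MYBL2 in S phase and then FOXM1 in G2, and these activate the genes needed for mitosis. LIN54 contacts DNA at the cell cycle genes homology region (CHR), LIN52 carries the site whose phosphorylation by DYRK1A favours DREAM, LIN9 holds MYBL2, LIN37 is needed for repression and RBBP4 binds histones. MYBL2 and FOXM1 are themselves cell cycle genes, MYBL2 being a long known E2F target. p16 inhibits CDK4 and CDK6, and p21 inhibits several cyclin-dependent kinases.

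The promoter windows of 4 of the genes are printed. MYBL2, LIN9 and LIN37 were taken because the members differed widely in how far they fell. MYBL2 had the largest difference, LIN9 the largest and LIN37 the smallest of the MuvB core in p16 against mVenus. LIN52, which was not lower in p21, was added after its values and the E2F match in its window had been seen. Each window runs from 250 bases before to 50 bases after a transcription start (RefSeq, GRCh38.p14), read 5′ to 3′ on the gene's strand. MYBL2 is at chr20:43666864-43667163 on the plus strand, LIN9 at chr1:226309115-226309414 on the minus strand, LIN37 at chr19:35748326-35748625 and LIN52 at chr14:74084706-74085005, both on the plus strand. Capitals mark matches on either strand to the CHR (TTTGAA or TTTAAA), an E2F site (TTTGGCGC, TTTCCCGC, TTTCGCGC or TTTGCCGC), the CCAAT box (CCAAT) and a shorter E2F core (GGCGGGA, added after the windows had been read), which can overlap the longer E2F site.
MYBL2: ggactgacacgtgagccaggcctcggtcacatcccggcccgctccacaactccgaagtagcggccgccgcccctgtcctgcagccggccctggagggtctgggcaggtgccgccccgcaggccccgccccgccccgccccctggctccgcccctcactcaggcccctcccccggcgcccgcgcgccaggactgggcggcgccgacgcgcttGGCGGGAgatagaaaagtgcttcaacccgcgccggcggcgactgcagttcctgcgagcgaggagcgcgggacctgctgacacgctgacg
LIN9: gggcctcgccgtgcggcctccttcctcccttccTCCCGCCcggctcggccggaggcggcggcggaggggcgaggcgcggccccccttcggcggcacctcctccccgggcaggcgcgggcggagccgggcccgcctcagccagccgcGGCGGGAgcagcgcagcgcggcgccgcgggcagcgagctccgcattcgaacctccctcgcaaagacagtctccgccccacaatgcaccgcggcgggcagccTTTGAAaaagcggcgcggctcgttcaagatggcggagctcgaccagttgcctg
LIN37: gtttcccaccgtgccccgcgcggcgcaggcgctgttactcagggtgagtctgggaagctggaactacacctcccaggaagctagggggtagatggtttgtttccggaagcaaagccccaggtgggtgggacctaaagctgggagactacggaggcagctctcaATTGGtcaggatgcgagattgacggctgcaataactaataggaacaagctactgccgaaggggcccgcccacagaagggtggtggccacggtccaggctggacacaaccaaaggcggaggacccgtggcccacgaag
LIN52: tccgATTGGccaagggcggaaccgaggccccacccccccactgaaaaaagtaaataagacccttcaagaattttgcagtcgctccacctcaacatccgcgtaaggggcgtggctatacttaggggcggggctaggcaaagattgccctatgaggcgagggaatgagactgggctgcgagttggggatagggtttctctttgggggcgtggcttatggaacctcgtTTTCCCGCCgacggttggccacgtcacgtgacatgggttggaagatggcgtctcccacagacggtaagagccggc

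A window was matched for 6 of the 8 genes: MYBL2, the 4 LIN genes and RBBP4. FOXM1 and MYBL1 were not matched. The MYBL2 window holds no CHR, longer E2F site or CCAAT box, and its single capital run is the E2F core at bases -39 to -33 from the start. Of the 3 LIN9 windows, the printed one holds a CHR over the start itself (bases -3 to 3) and 2 E2F cores. The other LIN9 windows hold neither. Where a gene had several windows, the printed one was picked by its number of CHR, longer E2F and CCAAT box matches. LIN52 holds the only longer E2F site among the 6 genes, at bases -25 to -18, overlapped by an E2F core at -23 to -17. The printed LIN37 window holds a CCAAT box on the minus strand at -87 to -83, and its other window a CHR at -182 to -177. LIN54, which is not printed, holds a CHR followed by an E2F core. Its windows overlap, and both show the same CHR and the same core. RBBP4 holds CCAAT boxes and an E2F core, the core again being the same site in overlapping windows. Over all 35116 windows of the table, 24.0% hold a CHR, 3.31% the longer E2F site, 34.6% a CCAAT box and 15.4% an E2F core. These are matches of letters and not measured binding sites.

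Libraries held 13168749 to 18321114 assigned counts. Levels are in CPM, the counts of a gene scaled to the assigned total of its library, and as CPM per kilobase of exon where genes are compared with each other. Fold changes are from the edgeR quasi-likelihood test over all tested genes, with the standard error (SE) and the Benjamini-Hochberg adjusted p, and a gene is said to have risen or fallen where that p is under 0.05. The test scales libraries by TMM, which raises differences of p16 and p21 from mVenus by 0.11 and 0.07 on the log2 scale over those of the plain CPM. Without this scaling, the median of all tested genes in p16 against mVenus moves from -0.00 to -0.11. CDKN2A, the gene of p16, had 0 counts in all 12 libraries, which allows up to 0.0631 CPM in the p16 group, so it gives no check of the p16 label. CDKN1A, the gene of p21, stood at 869 to 891 CPM in p21, 729 to 752 in mVenus, 517 to 570 in p16 and 241 to 272 under Torin2. Basal epithelial markers were all detected and summed to 9423 to 9839 CPM in mVenus, 15702 to 16400 in p16, 10046 to 10273 under Torin2 and 10249 to 10595 in p21. The 8 basal markers moved in both directions. In p16 against mVenus 6 rose (KRT14 by 4.19 on the log2 scale) and 2 fell (LAMB3 by 1.49), beside 30.9% and 32.8% of tested genes. In p21 4 rose and 2 fell, beside 28.2% and 28.3%. With Torin2 against p16 3 rose and 5 fell, beside 30.3% and 29.0%. The 8 leukocyte markers summed to 56.8 to 60.7 CPM in mVenus, 111 to 123 in p16, 51.6 to 55.5 under Torin2 and 107 to 110 in p21, mostly CSF1R (a mean of 41.7 in mVenus and 79.2 in p16) and CD14 (15.6 and 35.3). CD3E and TYROBP were at 0 in all groups, and PTPRC in all but mVenus. The 8 fibroblast markers summed to at most 21.5 CPM in mVenus, 6.74 to 7.23 in p16, 5.61 to 5.85 under Torin2 and 110 to 117 in p21, where DCN had a mean of 109 and COL1A2 and COL3A1 had 0 counts. The 6 endothelial markers summed to 5.32 to 6.37 CPM in mVenus, 22.5 to 27.2 in p16 (ROBO4 at a mean of 21.1), 7.95 to 10.8 under Torin2 and 2.70 to 4.03 in p21. Mitochondrial genes took 3.85 to 3.91% of counts in mVenus and 5.66 to 6.98% in the other groups. The part of these markers and of the mitochondrial share in the results was not tested.

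MYBL2, which drives S phase entry and partners MuvB in cycling cells, was abundant in mVenus cells and nearly lost in p21 cells. Its level in the 3 mVenus libraries was 77.0, 78.4 and 79.2 CPM, and in the p16 libraries 2.47, 2.81 and 2.22 CPM. With Torin2 it was 5.93, 5.77 and 6.25 CPM, and in p21 it was 0.952, 0.615 and 0.188 CPM, the last from 3 counts. The 4 groups did not overlap, with mVenus highest, then p16 with Torin2, p16 and last p21, and each neighbour in that order differed. MYBL2 fell by 4.85 ± 0.14 (log2, SE) in p16 against mVenus (adjusted p = 3.86e-19) and by 7.02 ± 0.28 in p21 against mVenus (adjusted p = 2.51e-19). It rose by 1.21 ± 0.16 with Torin2 against p16 (adjusted p = 1.28e-06), and stood lower in p21 than in p16 by 4.48-fold (adjusted p = 1.07e-06). As a fitted share of the mVenus level, 3.46% was left in p16 (95% interval 2.76 to 4.34), 8.02% with Torin2 (6.82 to 9.44) and 0.773% in p21 (0.491 to 1.22). The p21 value rests on 26 counts over 3 libraries, and leaving out a library, or another setting, moved it between -7.49 and -6.59 on the log2 scale.

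FOXM1, the fork head factor that activates late mitotic genes, followed the same order of groups over a narrower range. It stood at 55.0, 54.4 and 57.8 CPM in mVenus and at 4.58, 4.16 and 4.91 CPM in p16. The Torin2 libraries held 9.13, 10.2 and 10.1 CPM, and the p21 libraries 3.44, 3.93 and 3.64 CPM. All groups were separate, although the highest p21 library (3.93) lay close under the lowest p16 library (4.16). FOXM1 fell by 3.51 ± 0.09 in p16 (adjusted p = 7.89e-19) and by 3.85 ± 0.10 in p21 against mVenus (adjusted p = 7.13e-19), and rose by 1.07 ± 0.10 with Torin2 against p16 (adjusted p = 1.39e-08). The difference of p21 from p16, -0.34 ± 0.12, was near the threshold (edgeR adjusted p = 0.0415). It lost its call in 8 of 12 alternatives, with adjusted p from 0.03 to 0.145, among them those without p16 replicate 1 (0.0809) or 3 (0.145) and without p21 replicate 1 (0.128) or 3 (0.0853). The gene lies at 12:2857681-2877155 (minus strand, GRCh38) and shares 15.9% of its exonic bases with ITFG2. Reads in the shared stretch cannot be given to either gene, and ITFG2 changed by -0.45 ± 0.09 in p16 against mVenus, far less than FOXM1.

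MYBL1, a relative of MYBL2 best known from male meiosis, fell in every comparison with mVenus but was not the lowest in p21. Its levels were 13.2, 12.6 and 13.9 CPM in mVenus, 1.57, 1.53 and 2.09 CPM in p16, 3.26, 3.08 and 2.34 CPM with Torin2, and 2.12, 2.40 and 1.32 CPM in p21. The mVenus libraries stood apart from all others, and the p21 libraries overlapped both the p16 and the Torin2 libraries. MYBL1 fell by 2.83 ± 0.19 in p16 (adjusted p = 7.26e-12) and by 2.69 ± 0.18 in p21 (adjusted p = 1.73e-11), and rose by 0.70 ± 0.21 with Torin2 against p16 (adjusted p = 0.0071). Between p21 and p16 it did not pass the test (0.13 ± 0.23, 95% interval -0.39 to 0.66). The value of 0.57 ± 0.21 for Torin2 against p21 (edgeR adjusted p = 0.0206) lost its call without Torin2 replicate 1 (0.0783) or 2 (0.0621), without p21 replicate 3 (0.143, with a value of 0.35) and by the DESeq2 Wald test (0.0552). Because the cultures were measured in bulk, fewer cells expressing MYBL2, FOXM1 or MYBL1 and less of their RNA per cell cannot be told apart. The proliferation marker MKI67 had the group order of MYBL2 and FOXM1, at 327 to 360 CPM in mVenus, 9.35 to 10.2 in p16, 50.5 to 52.3 under Torin2 and 3.02 to 3.81 in p21. MYBL1 differed from MKI67 in not being lower in p21 than in p16. The part of MKI67 in the values of MYBL2, FOXM1 and MYBL1 was not tested.

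**Figure D1:**
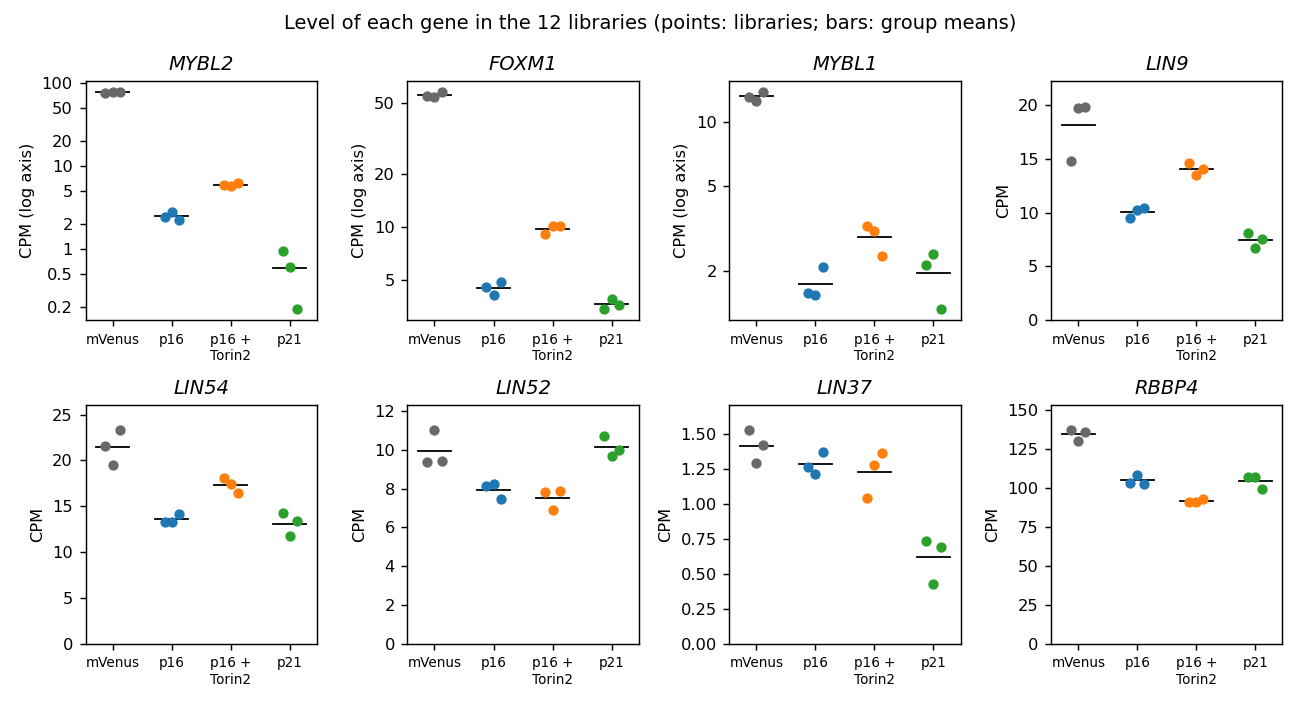
Level of each of the 8 genes (CPM, y axis, on a log axis for MYBL2, FOXM1 and MYBL1 and from 0 for the others) in the 3 libraries of each group (points), with group means (bars). MYBL2 runs from 79.2 CPM in an mVenus library to 0.188 in a p21 library, whereas LIN52 stays between 6.92 and 11.0 CPM.

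Among the MuvB subunits, LIN9 and LIN54 fell in both arrest groups and rose with Torin2, over a much smaller range than the transcription factors. LIN9, the scaffold that holds MYBL2, stood at 14.8, 19.7 and 19.9 CPM in mVenus, 9.45, 10.2 and 10.4 CPM in p16, 14.6, 13.5 and 14.1 CPM with Torin2, and 8.06, 6.70 and 7.54 CPM in p21. No groups overlapped, and the first mVenus library lay just above the highest Torin2 library. LIN9 fell by 0.74 ± 0.10 in p16 (adjusted p = 2.94e-06) and by 1.21 ± 0.11 in p21 against mVenus (adjusted p = 8.84e-09). It rose by 0.45 ± 0.11 with Torin2 against p16 (adjusted p = 0.00141) and was lower in p21 than in p16 (-0.47 ± 0.12, adjusted p = 0.00255). Torin2 cells still stood below mVenus (-0.29 ± 0.10, edgeR adjusted p = 0.0123), a call lost without mVenus replicate 2 (0.0607) or 3 (0.0875) and by the DESeq2 Wald test (0.0569).

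LIN54, the DNA-binding subunit, was at 21.6, 19.5 and 23.3 CPM in mVenus, 13.3, 13.2 and 14.2 CPM in p16, 18.1, 17.4 and 16.4 CPM with Torin2, and 14.2, 11.7 and 13.4 CPM in p21. The p16 and p21 libraries overlapped, below those with Torin2 and those of mVenus. It fell by 0.56 ± 0.08 in p16 (adjusted p = 4.27e-06) and by 0.65 ± 0.08 in p21 (adjusted p = 9.16e-07), and rose by 0.31 ± 0.08 with Torin2 against p16 (adjusted p = 0.00368). For p21 against p16 the difference was -0.09, with a 95% interval of -0.30 to 0.11. The lower level with Torin2 than in mVenus (-0.25 ± 0.08, edgeR adjusted p = 0.00737) lost its call without mVenus replicate 3 (0.0591) and by the DESeq2 Wald test (0.056).

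LIN52, the subunit whose phosphorylation directs MuvB to the pocket proteins, kept close to its mVenus level in p21. It stood at 9.39, 11.0 and 9.45 CPM in mVenus, 8.13, 8.25 and 7.46 CPM in p16, 7.82, 6.92 and 7.87 CPM with Torin2, and 10.7, 9.71 and 9.99 CPM in p21. The p21 libraries overlapped those of mVenus and lay above all p16 and Torin2 libraries. Against mVenus, LIN52 did not pass the test in p16 (-0.21 ± 0.10, adjusted p = 0.0755) or in p21 (0.10 ± 0.10, adjusted p = 0.376, 95% interval -0.12 to 0.32). Without TMM scaling the p16 value was -0.31 with an adjusted p of 0.00913. With Torin2 it was lower than in mVenus (-0.32 ± 0.10, edgeR adjusted p = 0.00759), a call lost by the DESeq2 Wald test (0.0606). LIN52 was higher in p21 than in p16 (0.31 ± 0.10, edgeR adjusted p = 0.0122), a call lost by the DESeq2 Wald test (0.0838). It was also the only LIN gene lower with Torin2 than in p21 (-0.43 ± 0.10, adjusted p = 9e-04).

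LIN37, the subunit needed for DREAM repression, had the fewest counts, 7 to 28 a library. Its levels were 1.53, 1.29 and 1.42 CPM in mVenus, 1.26, 1.21 and 1.37 CPM in p16, 1.04, 1.28 and 1.37 CPM with Torin2, and 0.733, 0.430 and 0.691 CPM in p21. Only the p21 libraries stood apart, below every other library. LIN37 fell by 1.14 ± 0.29 in p21 against mVenus (adjusted p = 0.0015) and by 1.10 ± 0.29 in p21 against p16 (adjusted p = 0.00253). In p16 against mVenus the value was -0.04 ± 0.24 (adjusted p = 0.897), with a 95% interval of -0.59 to 0.51, which holds the value of LIN54 (-0.56) and not that of LIN9 (-0.74). The gene (19:35748361-35754519, plus strand) shares 54.0% of its exonic bases with the antisense gene AD000671.3 and with AD000671.1, so its level is understated.

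RBBP4, a histone-binding protein shared by MuvB with other chromatin complexes, was the most abundant of the 8 genes in CPM and had the smallest range. Its levels were 137, 130 and 136 CPM in mVenus, 103, 108 and 103 CPM in p16, 90.7, 90.9 and 92.9 CPM with Torin2, and 107, 107 and 99.1 CPM in p21. The p16 and p21 libraries overlapped, the mVenus libraries lay above them and the Torin2 libraries below. RBBP4 fell by 0.25 ± 0.04 in p16 (adjusted p = 1.72e-05) and by 0.30 ± 0.04 in p21 (adjusted p = 2.99e-06). Alone among the 8 genes, it fell further with Torin2 against p16 (-0.24 ± 0.04, adjusted p = 5.67e-05). SYNC overlaps 18.0% of its exonic bases and 6 named pseudogenes held 971 counts against 20612 for RBBP4, so reads from these copies may be divided among them.

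Against mVenus, p16 induction lowered 6 of the 8 genes and raised 0, beside 32.8% of all tested genes lower and 30.9% higher. Of these, 3 (MYBL2, FOXM1 and MYBL1) were at least 2-fold lower, beside 9.35% of tested genes. By the edgeR test, LIN37 and LIN52 were not called. The libraries of p16 and mVenus did not overlap for 7 of the 8 genes, beside 66.8% of tested genes. In p21 against mVenus, 7 of 8 fell and 0 rose, beside 28.3% of tested genes lower and 28.2% higher, and 5 (MYBL2, FOXM1, MYBL1, LIN9 and LIN37) fell at least 2-fold, beside 6.49%. A median over the 8 genes of -0.65 in p16 and -1.17 in p21 stood beside -0.00 over all tested genes in both. Without TMM scaling, the genes called in p16 were divided into 3449 higher and 5893 lower in place of 4487 and 4751, and in p21 into 3307 and 5052 in place of 4085 and 4102, and the members lower were 7 and 7.

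Torin2 in p16 cells raised 5 of the 8 genes (30.3% of tested genes were higher) and lowered 1, RBBP4 (29.0% were lower). The rises were in all 3 transcription factors and in LIN9 and LIN54, and only MYBL2 and FOXM1 rose at least 2-fold, beside 4.70% of tested genes. None of the 3 transcription factors came near the mVenus level, and Torin2 cells were lower than mVenus cells in 7 of 8 genes (36.1% of tested genes were lower) and higher in 0 (31.2% were higher), LIN37 not being called. The DESeq2 Wald test called 4 of the 8 lower, LIN9, LIN52 and LIN54 losing their calls. With Torin2, FOXM1 stood at 18.4% of its mVenus level and MYBL1 at 22.9%, while LIN9 stood at 81.5% and LIN54 at 84.0%. The comparisons with p16 and with mVenus share the Torin2 libraries.

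Between the inducible inhibitors, p21 cells were lower than p16 cells in 4 of 8 genes (27.2% of tested genes were lower) and higher in LIN52 (27.2% were higher). MYBL2 and LIN37 were at least 2-fold lower, beside 5.12% of tested genes, and LIN9 and FOXM1 less so. The FOXM1 call was lost in 8 of 12 alternatives, and the LIN52 call by the DESeq2 Wald test. MYBL1, LIN54 and RBBP4 did not pass the test, with 95% intervals of -0.39 to 0.66, -0.30 to 0.11 and -0.14 to 0.05. Torin2 cells were higher than p21 cells in 6 of 8 genes (33.2% of tested genes were higher) and lower in LIN52 and RBBP4 (33.3% were lower). Among the 6, the MYBL1 call was lost in 4 of 12 alternatives. The largest difference between Torin2 and p21 cells was in MYBL2, 10.4-fold higher with Torin2 (adjusted p = 3.94e-11), followed by FOXM1 at 2.65-fold.

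**Figure D2:**
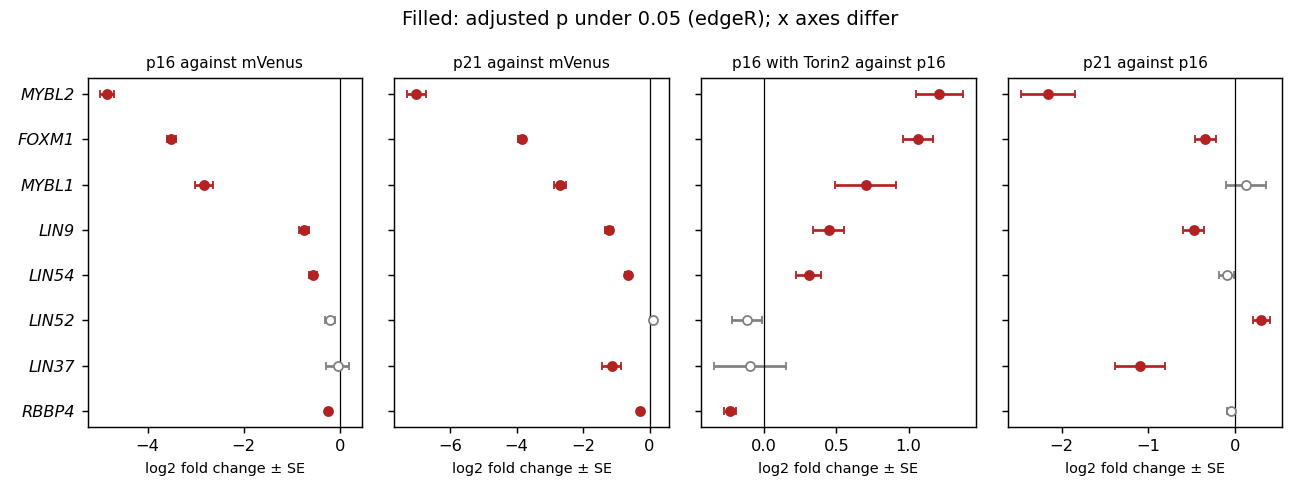
Log2 fold change with its SE (x axis, scales differ between panels) of the 8 genes in 4 comparisons, filled where the edgeR adjusted p is under 0.05. In p16 and in p21 against mVenus the 3 transcription factors lie at -2.69 or below and the MuvB subunits between -1.21 and 0.10.

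Compared per kilobase of exon, MYBL2 went from above all MuvB subunits in mVenus to below LIN9, LIN54 and LIN52 in p21, and FOXM1 from above these 3 to below them. MYBL1 was below them already in mVenus (1.83 ± 0.089). In mVenus cells MYBL2 was the most abundant of the 8 genes per length (28.2 ± 0.39 CPM per kilobase, mean ± SD, n = 3), above RBBP4 (14.2 ± 0.38), FOXM1 (11.4 ± 0.37) and LIN9 (4.09 ± 0.64). In p21 cells MYBL2 was at 0.211 ± 0.14 CPM per kilobase, below LIN9 at 1.67 ± 0.15, LIN54 at 1.94 ± 0.19 and LIN52 at 2.74 ± 0.14. The ratio of MYBL2 to LIN9 per length was 8.30, 6.36 and 6.38 in the mVenus libraries and 0.418, 0.440 and 0.342 in p16. It was 0.650, 0.686 and 0.711 with Torin2 and 0.189, 0.147 and 0.0400 in p21, so the 4 groups did not overlap. The ratio of FOXM1 to LIN9 was 2.83 ± 0.46 in mVenus, 0.412 ± 0.04 in p16, 0.635 ± 0.06 under Torin2 and 0.453 ± 0.07 in p21, where p16 and p21 overlapped. Within the MuvB core the ratio of LIN9 to LIN54 was 0.858 to 0.870 in p21, below the 1.05 to 1.54 of the other libraries, while LIN52 to LIN54 was 1.37 to 1.52 in p21 and 0.731 to 1.14 in the others. Per length, MYBL1 was 0.0609 ± 0.003 of the sum of MYBL1 and MYBL2 in mVenus, 0.211 ± 0.048 in p16, 0.157 ± 0.027 under Torin2 and 0.596 ± 0.13 in p21. The p21 share was 0.461, 0.599 and 0.729 in its 3 libraries, which rest on 13, 10 and 3 counts of MYBL2.

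The partners that join the MuvB core in DREAM did not move together. RBL1, which encodes p107 and is itself an E2F target, stood at 34.6, 32.2 and 35.3 CPM in mVenus and 5.00, 5.69 and 6.08 CPM in p16. It was at 17.6, 16.7 and 17.6 CPM with Torin2 and 6.45, 7.93 and 7.35 CPM in p21. RBL1 fell by 2.50 ± 0.09 in p16 and by 2.16 ± 0.09 in p21 and rose by 1.59 ± 0.10 with Torin2, as MYBL2 and FOXM1 did. In p21 against p16 it differed from them, being higher (0.35 ± 0.11, edgeR adjusted p = 0.0114) where MYBL2 and FOXM1 were lower. RBL2, which encodes p130, the pocket protein of DREAM in quiescent cells, went the other way, with 53.9, 55.6 and 53.8 CPM in mVenus and 67.0, 66.6 and 66.4 CPM in p16. The Torin2 libraries held 86.5, 87.4 and 87.2 CPM of RBL2 and the p21 libraries 80.1, 70.7 and 71.1 CPM. RBL2 rose by 0.40 ± 0.05 in p16 (adjusted p = 3.83e-07), by 0.51 ± 0.05 in p21 (1.49e-08), and by 0.34 ± 0.05 with Torin2 against p16 (2.18e-06). E2F4, the DNA-binding E2F of DREAM, was at 51.3 to 56.8 CPM in all 12 libraries and was not called in any of the 6 comparisons. Per length, MYBL2 to RBL2 was 3.79 ± 0.08 in mVenus, 0.0989 ± 0.012 in p16, 0.181 ± 0.007 under Torin2 and 0.0204 ± 0.012 in p21.

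The list of 7 partners counted here includes DYRK1A, which is the kinase of LIN52 and not a subunit of DREAM. In p16 against mVenus 3 of the 7 fell (RBL1, TFDP1 and DYRK1A) and 1 rose (32.8% and 30.9% of tested genes). Their median was -0.01 beside -0.00 over all tested genes. E2F5 (0.34 ± 0.15, adjusted p = 0.0556) was called without mVenus replicate 1 or p16 replicate 1, which gives 2 rises. TFDP1, a DP protein that pairs with E2Fs, fell by 0.43 ± 0.04 in p16 and by 0.51 ± 0.04 in p21, while its relative TFDP2 rose by 0.48 ± 0.05 in p21 and was at -0.01 ± 0.05 in p16. In p21 against mVenus 2 partners rose and 2 fell, with TFDP2 joining RBL2. These counts were near the shares of all tested genes (28.2% higher and 28.3% lower). DYRK1A, the kinase of LIN52, was at -0.11 in p21 (adjusted p = 0.0573) after a fall of 0.30 ± 0.05 in p16. Torin2 against p16 gave 3 rises (RBL1, RBL2 and E2F5) and 1 fall (TFDP1), or 2 falls without p16 replicate 3. There, 30.3% of all tested genes were higher and 29.0% lower. Among relatives of the members, RBBP7, the paralog of RBBP4, fell by 0.60 ± 0.04 in p16 and by 0.62 ± 0.04 in p21, each more than RBBP4. The ratio of RBBP4 to RBBP7 per length therefore went from 0.609 ± 0.008 in mVenus to 0.774 ± 0.022 in p16 and 0.763 ± 0.023 in p21. TESMIN, the relative of LIN54, rose by 0.45 ± 0.10 in p16 and by a further 0.75 ± 0.09 with Torin2. MYB held 57 counts in mVenus and 7 in p21 over 3 libraries, a difference of -2.79 (adjusted p = 1.79e-05), against 0.11 ± 0.29 in p16.

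**Figure D3:**
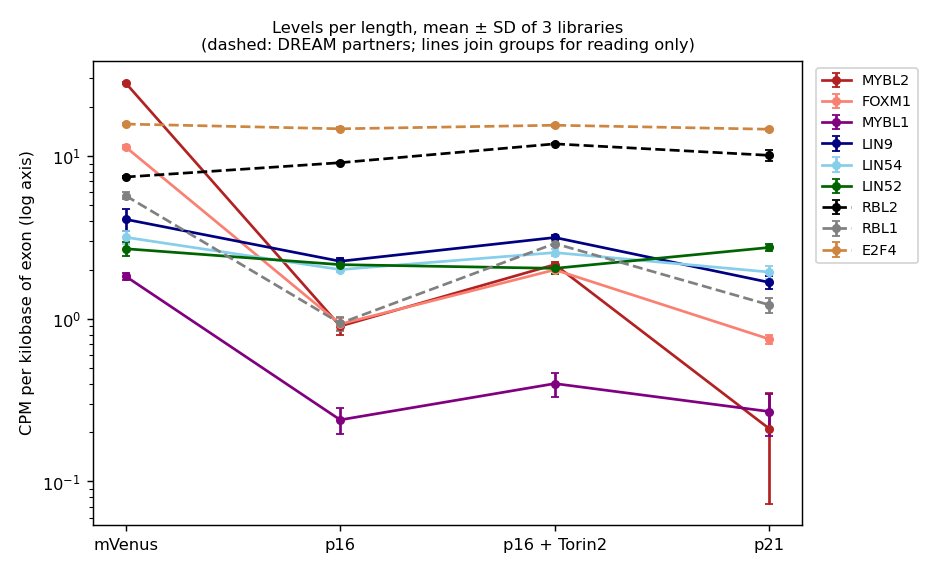
Mean level per kilobase of exon ± SD of 3 libraries (y axis, log scale) in the 4 groups for MYBL2, FOXM1, MYBL1, 3 MuvB subunits and the DREAM partners RBL1, RBL2 and E2F4 (dashed). MYBL2 crosses from 28.2 in mVenus to 0.211 in p21, below LIN9, LIN54 and LIN52, while RBL2 goes from 7.44 to 10.1.

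Genes whose products act on MYBL2, FOXM1 or the choice between DREAM and its activating forms were divided. Of the 16 regulators, 10 fell and 4 rose in p16 against mVenus (median -0.55), beside 32.8% of all tested genes lower and 30.9% higher. In p21, 11 fell and 3 rose (median -0.46), beside 28.3% and 28.2%. Some of these regulators, PLK1 among them, are also counted with the G2/M targets below, so the counts overlap. CDK1 and CCNA2, kinase and cyclin that phosphorylate FOXM1 and MYBL2, fell by 4.05 ± 0.13 and 3.86 ± 0.15 in p16 and by 4.61 ± 0.15 and 4.53 ± 0.18 in p21. CCND1, the cyclin D1 gene, rose by 0.40 ± 0.03 in p16 and by 1.15 ± 0.03 in p21. With Torin2 against p16, CDK1 rose by 1.97 ± 0.14 and CCNA2 by 1.61 ± 0.16, whereas PLK1, which phosphorylates FOXM1 and is also a target of it, fell by 0.51 ± 0.08 (adjusted p = 1.99e-05). PLK1 therefore differed in direction from MYBL2 and FOXM1 in that comparison, having fallen by 1.37 ± 0.07 in p16 and by 3.90 in p21 against mVenus. RB1, the pocket protein gene that does not enter DREAM, fell by 0.50 ± 0.06 in p16 and by 0.35 in p21.

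Genes known as targets of the MuvB complexes with MYBL2 and FOXM1 (G2/M) and of E2F with DREAM (G1/S) fell with the transcription factors in both arrest groups. Of 47 tested G2/M targets, 45 fell and 1 rose in p16 against mVenus (median -3.13) and 47 fell in p21 (median -4.29). Over all tested genes, 32.8% fell and 30.9% rose in p16, and 28.3% fell and 28.2% rose in p21. The largest fall in p16 was in KIF2C, a mitotic kinesin (-4.74 ± 0.17), and the rise was in CDC25B, a phosphatase that activates CDK1 (0.26 ± 0.05). Of 46 tested G1/S targets, 46 fell in p16 (median -2.15) and 45 in p21 (median -2.33), led in p16 by TK1, thymidine kinase (-5.30 ± 0.20). In the same comparisons MYBL2 (-4.85 and -7.02) lay beyond the lowest G2/M target in p16, and within their range in p21. Torin2 against p16 raised 36 G2/M targets and lowered 4 (median 1.02). It raised 37 G1/S targets and lowered 1 (median 0.74), or 0 without p16 replicate 3 or Torin2 replicate 1 or 2. Of all tested genes, 30.3% rose and 29.0% fell in that comparison. UBE2C, a mitotic ubiquitin-conjugating enzyme, rose by 2.36 ± 0.18 and CDT1, a replication licensing factor, by 2.92 ± 0.16, beside 1.21 for MYBL2. In p21 against p16, 42 G2/M targets fell and 0 rose (median -1.25), among them CDC20 (-2.64 ± 0.19) and PLK1 (-2.52 ± 0.12). Both had at least 5 CPM in p16, and larger falls were fitted at low counts in TROAP (29 counts over the p16 libraries and 1 over those of p21) and DLGAP5 (86 and 12). In p21 against p16, 24 G1/S targets fell and 8 rose (median -0.40), beside 27.2% of all tested genes lower and 27.2% higher. All tested genes had a median of -0.01 in p21 against p16 and 0.02 in Torin2 against p16.

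**Figure D4:**
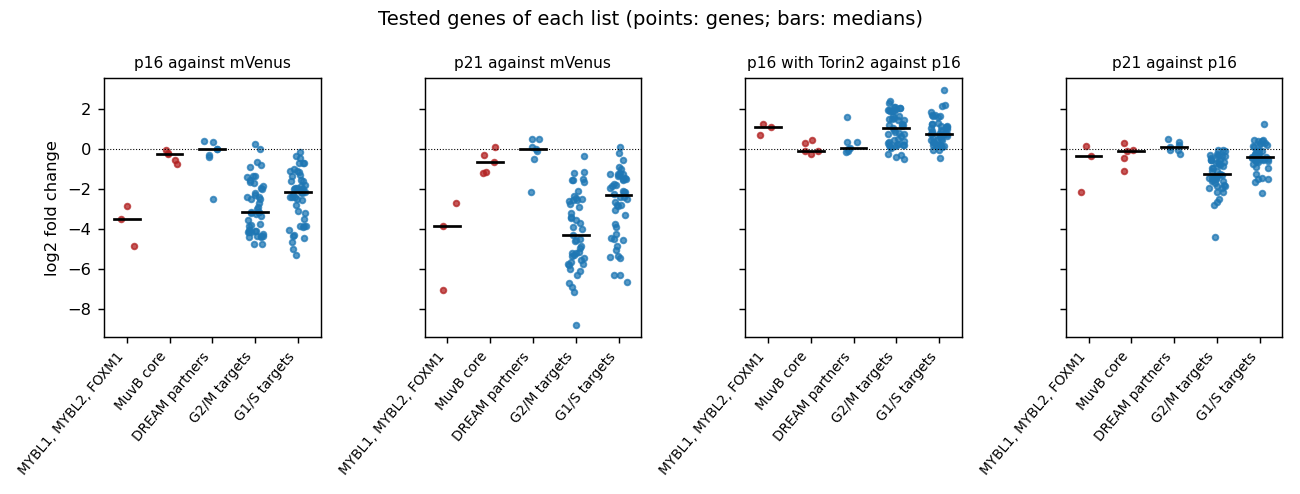
Log2 fold changes (y axis) of the tested genes of 5 lists in 4 comparisons, with medians as bars. In p16 against mVenus the MuvB core (median -0.25) and the DREAM partners with DYRK1A (-0.01) lie near 0. The 3 transcription factors (-3.51), G2/M targets (-3.13) and G1/S targets (-2.15) lie far below.

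The letters sought in the members' promoters were counted in the same windows of their targets, taking a gene as positive where any of its windows held a match. A CHR was found in 33 of 40 G2/M targets with a window (82.5%), in 8 of 41 G1/S targets (19.5%) and in 21.5% of the 10044 tested genes with a window. The longer E2F site was found in 24 of 41 G1/S targets (58.5%), 3 of 40 G2/M targets (7.5%) and 6.52% of tested genes. Of the 5 MuvB genes, 3 (LIN9, LIN37 and LIN54) held a CHR and 1 (LIN52) the longer E2F site. All 5 held an E2F core, which 30.3% of tested genes held. Because the core was added after the windows had been read, its presence in all 5 cannot be compared with that share. The fork head sequence GTAAACA was found in 0 of the 6 matched members and in 3.52% of tested genes, and the MYB sequence AACNG, in 5 of the 6, was in 80.1% of tested genes. These lists were drawn from known targets, so the matches describe them and were not tested.

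**Figure D5:**
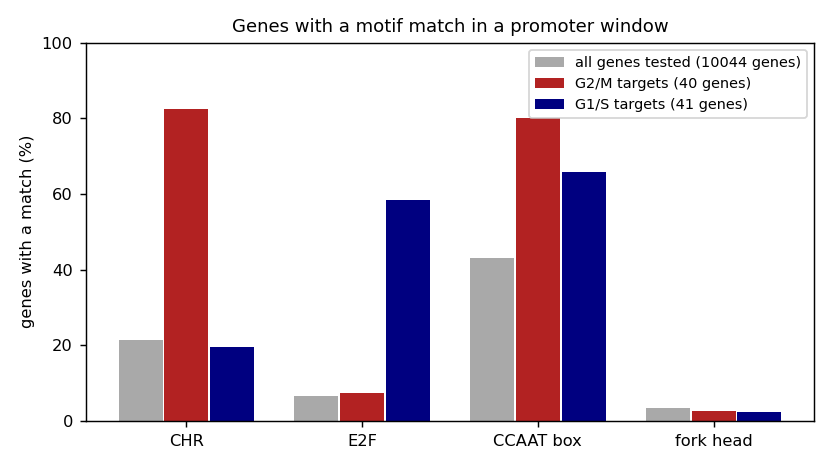
Share of genes (%, y axis from 0) with a match to 4 motifs in a promoter window, for all tested genes and for the G2/M and G1/S targets. The CHR is at 82.5% of G2/M targets beside 21.5% of tested genes, and the longer E2F site at 58.5% of G1/S targets beside 6.52%.

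The patterns of the members over the 12 libraries were compared by the root mean square difference in log2 CPM (after TMM scaling) between genes centred on their own means. Nearest to MYBL2, among genes with a mean of at least 5 CPM, were KIF2C, a mitotic kinesin (0.40), BIRC5, which encodes survivin (0.41), and GTSE1 (0.42), beside a median of 2.54 over all such genes. Nearest to FOXM1 were TACC3, a spindle protein (0.21), NDC80, a kinetochore subunit (0.25), and EXO1, an exonuclease (0.25), and nearest to MYBL1 were ZWINT (0.21), ATAD2 (0.26) and KIF11 (0.28). KIF22, a chromokinesin (0.12), was nearest to LIN9, ahead of PLP2 and NUP107. The genes nearest to LIN54 (NUP58, CHSY1 and TOP2B), to LIN52 (LEMD2, UPF3A and COX19), to LIN37 (RASEF, RHPN2 and AKNA) and to RBBP4 (RHOA, DDX3X and NUDT5) had differences of 0.05 to 0.20. Among the members, MYBL1 and FOXM1 were closer to each other (0.48) than either was to MYBL2 (1.55 and 1.17). LIN52 and RBBP4 had the smallest difference of all pairs (0.18), followed by LIN9 and LIN54 (0.25). Their order by Pearson correlation was the reverse, with 0.52 for LIN52 and RBBP4 and 0.91 for LIN9 and LIN54. By Pearson correlation instead, 0 of the 3 nearest genes were shared for FOXM1, LIN9, LIN37, LIN52 and RBBP4.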

How the data were processed

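Polyadenylated RNA of 12 MCF10-A cultures (3 for each of 4 groups) was made into libraries with a stranded KAPA kit, per the labels' protocols, and sequenced. The authors deposited raw counts of reads per gene, made with featureCounts 1.6.3 on exons of GENCODE 29 summarised by gene name with no strand option, per the file headers, so overlapping genes cannot be separated, even on opposite strands. The submitters' processing notes name HISAT2, Subread, FastQC 0.11.3, DESeq2 and GRCh38.p7. The authors' comparison tables were not used here.

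From the counts, CPM, exon lengths and overlaps were computed over GENCODE 29 with Python 3.11.15. Genes passing filterByExpr (14504) were scaled by TMM and tested in R 4.3.3 with edgeR 4.0.16 (glmQLFit and glmQLFTest, all 12 libraries together, 1 coefficient for each group, 8 residual degrees of freedom, two-sided, Benjamini-Hochberg over all genes). SEs are from the fit's information and its moderated dispersion. As nothing beyond the series description says that cultures were independent, p-values measure the spread between these samples. Libraries held 13168749 to 18321114 counts, and limits for a count of 0 (3 counts over a group) cover counting error only. The code was checked on simulated counts. No 2 libraries of a group agreed within counting noise.

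The 8 members, the gene lists and the tests were chosen with earlier results of these data known. The text names the 8 members, and all tested DREAM partners, paralogs and regulators. From each other list it names at most 2 rises and 2 falls with an adjusted p under 0.05 and at least 5 CPM, and for each member the 3 most alike genes. Promoters were those of MYBL2, FOXM1 and the MuvB subunits with the largest and smallest change. LIN52 was added later, after its values and its E2F match had been seen. Alternatives were leaving out each library, a replicate block, fitting just the 6 libraries of a comparison, the Wald test of DESeq2 1.42.0, its size factors, upper quartile scaling and no filter on low counts, and, added after seeing the data, no scaling.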

Additional observations from a re-analysis of the deposited data

How the results depend on the processing

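Of 624 alternative values of the members' log2 fold changes, 604 kept their side of the threshold, 19 lost the call and 1 gained it. Of the 604, 599 kept their direction and 5, none of them called, changed sign: LIN37 in p16 against mVenus (3) and in p16 with Torin2 against p16 (1), and MYBL1 in p21 against p16 (1). The DESeq2 Wald test called 0 members higher in p21 against p16 in place of 1, and 4 lower in p16 with Torin2 against mVenus in place of 7. Values for each gene whose call changed stand beside its result. Under TMM scaling, 4 of 32 levels per length moved by over 1 SD. Libraries with the same replicate number did not deviate together (correlations from -0.08 to 0.08, with 6 of 12 libraries closest to their own number), so the numbers were not used to pair them. With the replicate block, 6 members were lower in p16 and 7 in p21 against mVenus, MYBL2 was at -7.02 in p21 against mVenus, and no member's call changed. Depth limits LIN37 (7 to 28 counts a library) and MYBL2 in p21 (26 counts in all) most.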

Other observations

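RBBP4 also belongs to chromatin complexes outside MuvB, and their other subunits differed in p16 against mVenus. CHAF1A and CHAF1B, which form the histone chaperone CAF-1 with RBBP4, both fell (by 1.56 ± 0.07 and 2.52 ± 0.13), as against 0.25 ± 0.04 for RBBP4. Both are also among the G1/S targets counted above. In the Polycomb complex PRC2, 4 of 7 genes fell and 0 rose (median -0.22), led by PHF19 (-3.00 ± 0.11) and EZH2, the methyltransferase (-1.51 ± 0.08). Over all tested genes in that comparison, 32.8% fell and 30.9% rose. Near those shares, in NuRD, a deacetylase and remodelling complex, 5 of 11 fell and 3 rose (median -0.08), MBD3 falling by 0.66 ± 0.06 and MTA2 rising by 0.28 ± 0.04. Of 9 genes of the SIN3 and NURF complexes, 4 fell and 3 rose, also near them (median -0.06), SMARCA1 falling by 2.35 ± 0.10.

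In p21 against mVenus, EZH1, the other methyltransferase of PRC2, rose by 0.47 ± 0.06 while EZH2 fell by 1.46 ± 0.08. With Torin2 against p16, where RBBP4 fell, PHF19 rose by 1.60 ± 0.12 and CHAF1B by 1.13 ± 0.14, and the NuRD gene MTA1 rose by 0.80 ± 0.05 while MTA2 fell by 0.47 ± 0.04.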
